A study of Homo sapiens with 4 samples.

Results

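Isolated CpGs are CpG dinucleotides with at most 1 other CpG listed nearby. A cytosine was counted as isolated when at most 2 distinct CpG positions, itself included, were listed in any of the 4 libraries within 250 bp on either side, when it lay on an autosome, and when it had at least 10 reads in all 4 libraries. This rule kept 29367 cytosines at 28892 CpGs, or 7.41% of the 396398 autosomal cytosines with that coverage. DNA methylation was measured by bisulfite sequencing, which turns unmethylated but not methylated cytosines into uracil, after capture of a selected part of the genome. All 4 libraries came from cells of the established human embryonic stem cell line H9. They were B3GALT5-/- cells (KO) made naive with 2iLAF medium, wild-type cells (WT) made naive with 5iLAF medium, primed KO cells and primed WT cells, both kept in basal medium. The deleted gene, B3GALT5, encodes a galactosyltransferase that acts in the synthesis of glycosphingolipids, and the deletion itself was not checked here. With 1 library per group there was no replicate check, and genotype and medium cannot be told apart between the naive libraries. Whether the KO cells were 1 clone is not given in the sources used here.

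Most of the human genome is poor in CpGs, because methylated cytosine tends to mutate to thymine. CpGs in such sequence are methylated in most somatic and primed pluripotent cells, whereas CpG islands are usually unmethylated. After each round of replication the maintenance methyltransferase DNMT1 copies methylation from the old to the new strand, and human naive pluripotent cells are known for low methylation across the genome. Low methylation at scattered CpGs is also known from distal regulatory elements bound by transcription factors, and isolated CpGs in late-replicating regions are known to lose methylation over many divisions.

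The isolated cytosines had a median of 26 reads in KO naive and 16 in WT naive cells, against 17 in KO primed and 16 in WT primed cells. Every listed cytosine had at least 1 methylated read. CpGs without methylation were therefore neither measured nor counted as neighbours, and levels near 0% were not seen in full. The number of CpGs is therefore that of listed positions, and the sequence itself was not read here. Of the isolated cytosines, 7513 (25.6%) had no listed neighbour and 21854 had 1. No further CpG was listed between 250 and 1000 bp from 77.9% of them. Neighbours 1 to 25 bp away had at least 10 reads in all 4 libraries in 89.8% of cases, but those 101 to 150 bp away in 8.79% and those 151 to 200 bp away in 7.93%. At 201 to 250 bp the share was 39.0%, over 390 isolated cytosines. Whether neighbours went unlisted because the sequence has none or because reads did not reach them cannot be told apart, and whether the sequence is CpG-poor could not be checked. The minus strand held 96.3% of the isolated cytosines, against 80.6% of the other autosomal cytosines. Coverage of over 100 reads on average, which can mark repeated sequence, was found at 0.579% of the isolated and 2.58% of the other cytosines.

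Isolated CpGs were highly methylated in primed cells and at intermediate levels in naive cells. Their mean level (± SD over 29367 cytosines) was 58.4% ± 22.03 in KO naive and 56.4% ± 24.7 in WT naive cells, against 82.9% ± 21.04 in KO primed and 81.8% ± 21.4 in WT primed cells. The medians were 61.1%, 58.3%, 90.9% and 89.5% in the same order. A level of 90% or above was reached by 5.17% of isolated cytosines in the KO naive and 9.60% in the WT naive library, against 52.98% in the KO primed and 49.8% in the WT primed library. All reads were methylated at 0.868% of isolated cytosines in the KO naive and 3.22% in the WT naive library, against 28.04% in the KO primed and 26.8% in the WT primed library. Levels under 20% were found at 6.40% in the KO naive, 9.07% in the WT naive, 2.27% in the KO primed and 2.54% in the WT primed library (Wilson 95% intervals 6.12 to 6.68, 8.75 to 9.41, 2.11 to 2.45 and 2.37 to 2.73%). Intervals here and below cover counting error only.

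**Figure D1:**
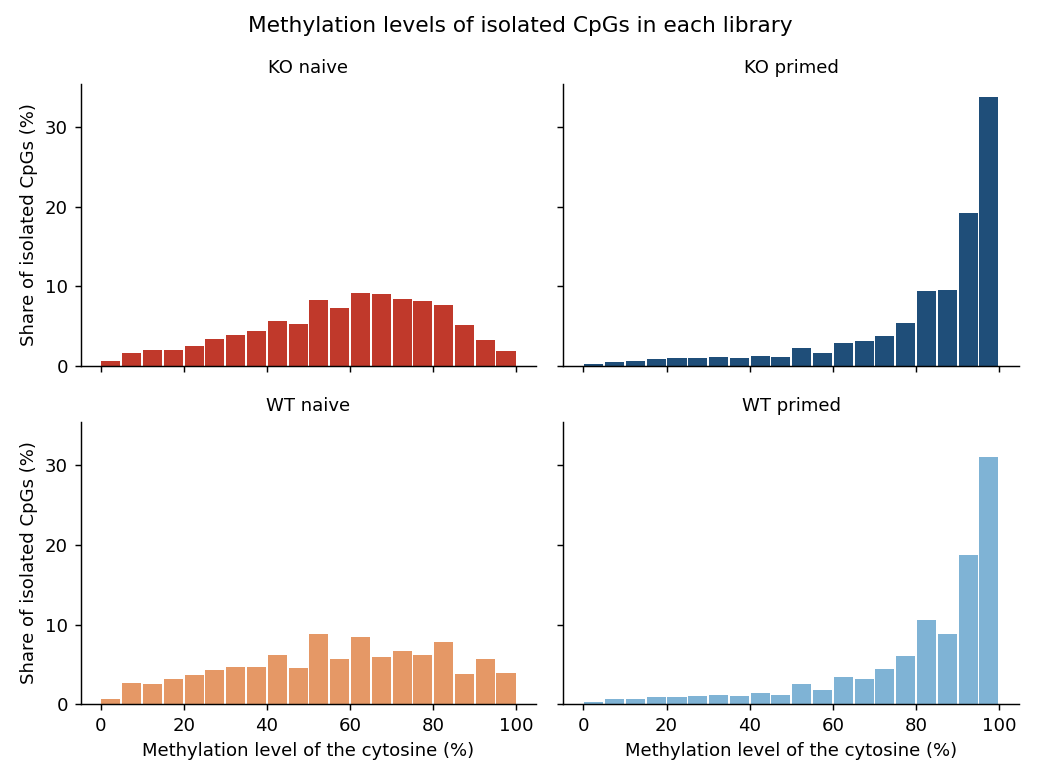
Distribution of methylation levels over the 29367 isolated cytosines, in 5-point bins, with 1 panel per library (naive left, primed right, KO above, WT below). The primed libraries pile up at the top, with 52.98% (KO) and 49.8% (WT) of cytosines at 90% or above, whereas the naive libraries are spread over the range with medians of 61.1% (KO) and 58.3% (WT).

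Isolated CpGs were less methylated in naive than in primed cells of both genotypes. In KO cells the naive-minus-primed difference in mean level was -24.5 percentage points (95% counting interval -24.7 to -24.4), with an SD across cytosines of 20.3 points. In WT cells it was -25.4 points (-25.5 to -25.2), with an SD of 24.5 points. Naive levels lay below primed levels at 89.5% of isolated cytosines in KO and at 84.7% in WT cells. The 2 genotypes averaged -24.96 points ± 0.607 (SD, n = 2 pairs), with both lower. Flipping the sign of each pair in an exact two-sided permutation test gave p = 0.5, which is as low as 2 pairs can reach. Across the isolated cytosines the naive-minus-primed differences of KO and WT cells had a Pearson r of 0.369. The naive levels themselves had an r of 0.642 between KO and WT, and the primed levels an r of 0.716, over the same 29367 cytosines. These are descriptions across sites, which share a library, a capture and a depth within each genotype.

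**Figure D2:**
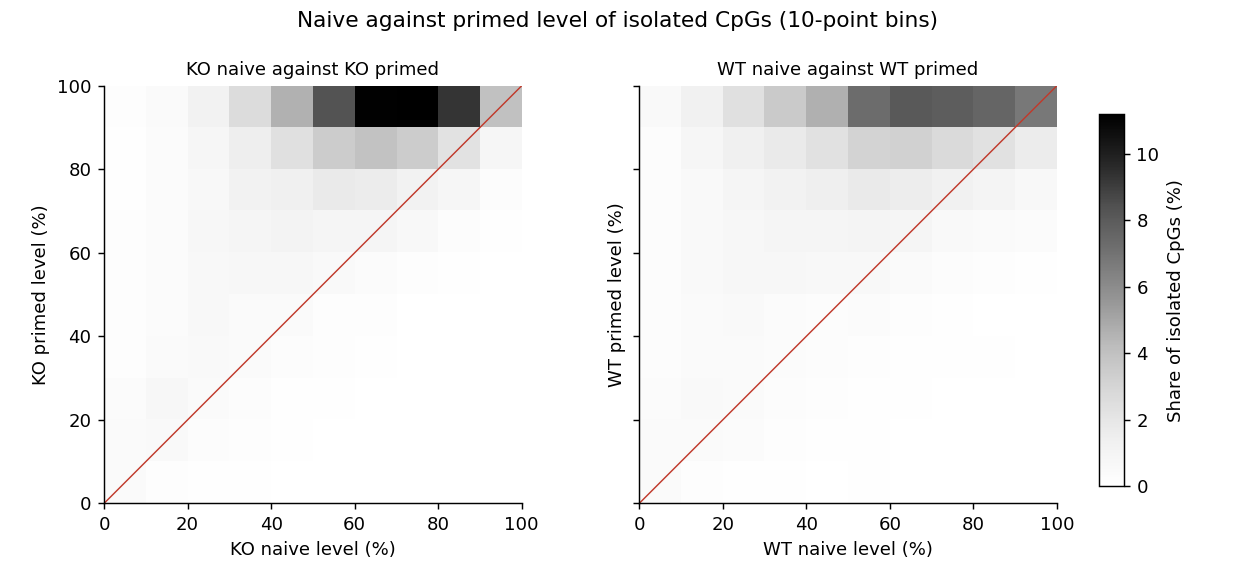
Level in the naive (horizontal axis) against the primed library (vertical axis) for the isolated cytosines, in 10-point bins shaded by their share of the cytosines, for KO (left) and WT cells (right), with the line of equal levels in red. Most cytosines lie above the line, with 89.5% (KO) and 84.7% (WT) lower in the naive library, and the top row spreads over nearly the whole range of naive levels.

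Isolated CpGs had a higher mean level than the other cytosines in all 4 libraries and kept a slightly smaller share of it in naive cells. The other 367031 autosomal cytosines had means of 55.5% and 53.9% in the KO and WT naive libraries and of 77.2% and 76.2% in the KO and WT primed libraries. The naive-minus-primed difference of isolated CpGs minus that of the others was -2.79 points in KO and -3.04 points in WT cells. The mean of these was -2.92 points ± 0.176 (SD, n = 2 pairs), lower in both pairs, with p = 0.5 in the same exact permutation test. It was -7.97 points with levels weighted by reads and -0.147 points on the plus strand alone, so its size rested on the weighting and on the strand. The mean naive level came to 70.4% of the mean primed level for isolated CpGs in KO and 68.9% in WT cells, against 71.9% and 70.7% for the others. With 1 pair per genotype none of these contrasts between kinds of CpG can pass a test. The higher level of isolated CpGs was not seen where both strands were covered. Minus-strand means of the 475 such isolated CpGs were 45.5% (KO) and 44.5% (WT) in naive and 66.2% and 65.1% in primed libraries. Over all 32834 such autosomal CpGs they were 51.5% and 49.4% in naive and 70.3% and 69.3% in primed libraries. Plus-strand means were also lower at the isolated CpGs in each library.

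Along classes of local CpG number the primed means went down from 83.9% (KO) and 82.8% (WT) at 1 listed CpG, over 82.5% and 81.4% at 2 and 80.8% and 79.7% at 3 to 5, to 74.6% and 73.9% at 11 to 20 CpGs. Over 20 CpGs they were 75.5% and 74.1%. The naive means went from 58.995% (KO) and 56.8% (WT) at 1 CpG to 53.2% and 52.1% at 11 to 20, and were 56.1% and 54.2% over 20. The share kept was 70.3% (KO) and 68.6% (WT) at 1 CpG and 74.3% and 73.1% over 20 CpGs. The primed level of the other genotype, which a difference does not use, served to compare cytosines of like primed level. Where the WT primed level was 90% or above, the KO difference was -25.2 points at 14627 isolated and -23.4 points at the other cytosines. Where the KO primed level was 90% or above, the WT difference was -26.3 points at 15560 isolated and -25.4 points at the others. At primed levels of 60 to 80% the differences were -27.2 points at isolated and -25.2 points at other cytosines in KO cells, and -28.03 and -25.4 points in WT cells.

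**Figure D3:**
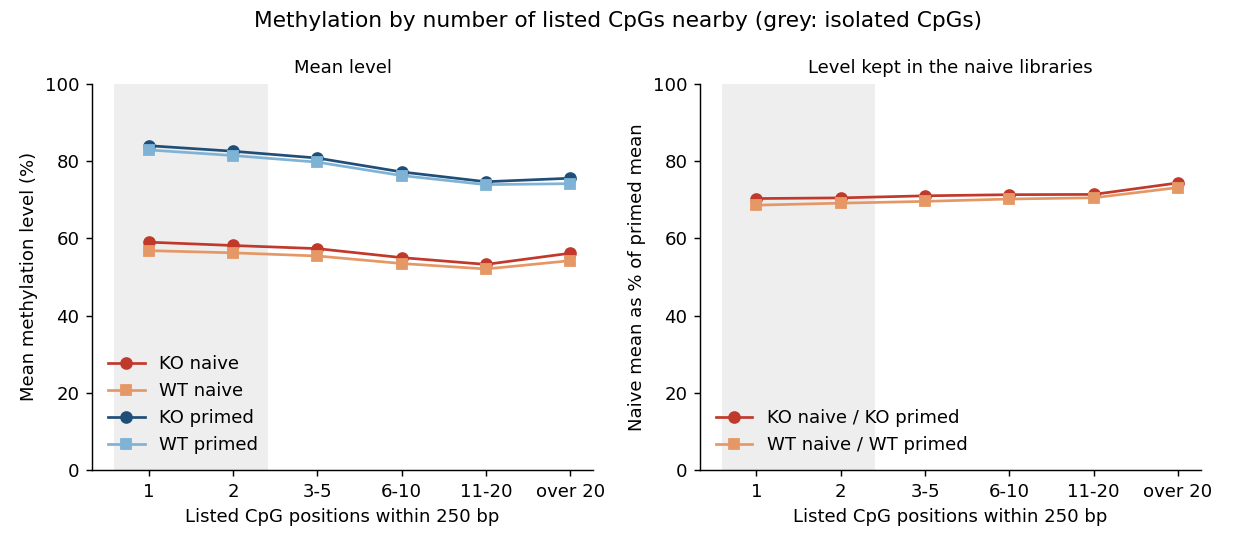
Left, mean methylation level by number of listed CpG positions within 250 bp, itself included, in each library. Right, the mean naive level as a percentage of the mean primed level. Isolated CpGs are shaded in grey. The primed level is highest at 1 CpG (83.9% in KO, 82.8% in WT), while the share kept lies between 68.6% and 74.3% in every class.

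Isolated CpGs that were almost fully methylated in primed cells had widely spread levels in the naive libraries. The error of single cytosines, given below, enters this spread, and its part was not tested. Both primed libraries were at 90% or above at 9926 isolated cytosines (33.8%, against 30.5% of the others). At these the mean (± SD over cytosines) was 68.2% ± 17.2 in KO naive and 65.8% ± 21.8 in WT naive cells, against 97.03% in the KO primed and 96.9% in the WT primed library. Of them 1511 (5.15% of all isolated cytosines, against 5.99% of the others) were also at 80% or above in both naive libraries. In both naive libraries 39 were at 20% or below (0.133%, against 0.243% of the others). Their naive levels had a Pearson r of 0.495 between KO and WT over these 9926 cytosines. All 4 libraries were at 80% or above at 2213 isolated cytosines (7.54%, Wilson 95% interval 7.24 to 7.84%), against 8.59% of the others.

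At the other end, 383 isolated cytosines (1.30%, against 3.37% of the others) were at 20% or below in both primed libraries. Their mean was 14.4% in the KO naive and 16.2% in the WT naive library, against 11.8% in the KO primed and 10.95% in the WT primed library. Of the 383, 11 stood at 50% or above in the KO naive and 21 in the WT naive library, and 5 in both. Levels of 20% or below in all 4 libraries were found at 253 isolated cytosines (0.862%) and at 1.95% of the others. Levels of 40 to 60% in all 4 libraries were found at 64 (0.218%), against 0.398% of the others. Fully unmethylated CpGs are missing from these counts, since they were not listed.

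Both strands could be followed at 475 isolated CpGs, which gives a check of single sites within a library. Of these CpGs 5 were at 80% or above and 7 at 20% or below on both strands in all 4 libraries. The CpG on chromosome 2, 176041361 to 176041362 (hg19, as all positions here), had levels of 93.9% and 81.2% on its plus and minus strands in the KO naive and 87% and 82.8% in the WT naive library, against 100% and 96.4% in the KO primed and 100% and 100% in the WT primed library. Its only listed neighbour, 7 bp away, was also among these 5, at 90% and 82.9% in the KO naive and 91.3% and 80% in the WT naive library. Both CpGs were thus at 80% or above on both strands in every library. The CpG on chromosome 1, 54934488 to 54934489, was low throughout. Its levels were 0.424% and 6.82% in KO naive and 2.46% and 4.29% in WT naive cells, against 1.08% and 9.30% in KO primed and 1.44% and 2.90% in WT primed cells, at 69 to 236 reads. Its plus strand had 122 to 236 reads per library, over the average of 100 above which coverage can mark repeated sequence.

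For single cytosines, the methylated and unmethylated reads of 2 libraries were compared by Fisher's exact test (two-sided), with p-values adjusted by Benjamini-Hochberg over all 411226 autosomal and X cytosines with the coverage. Calls needed an adjusted p below 0.05 and 25 points of difference or more. Such a test sets 1 library against another, and says nothing of how conditions vary. In KO cells 8452 isolated cytosines (28.8%) were lower in the naive library, against a background of 27.4% over all cytosines, and 65 (0.221%) were higher, against 0.392%. In WT cells 7900 (26.9%) were lower, against 26.7%, and 101 (0.344%) were higher, against 0.828%. Over all depths the shares of lower calls were near the background. Within bins of depth they were mostly larger at isolated than at other cytosines. In KO cells they were 23.4% of isolated and 21.2% of other cytosines at 15 to 20 reads on average in the libraries compared. At 20 to 30 reads they were 31.96% and 29.1%. In WT cells they were 27.9% and 25.9% at 15 to 20 reads and 34.6% and 32.4% at 20 to 30. Only at 30 to 50 reads in WT cells was the isolated share smaller, at 32.9% against 33.97%. The shares of higher calls were smaller than the background, at a lower depth and a higher primed level of the isolated cytosines, whose part in this was not tested. In KO cells the shares of isolated and other cytosines called higher were 0.285% and 0.322% at 15 to 20 reads on average in the libraries compared, 0.182% and 0.449% at 20 to 30, and 0.395% and 0.543% at 30 to 50. With a minimum of 20 reads in all libraries they were 0.445% of isolated and 0.439% of all cytosines, so the smaller share in KO cells was not seen with that minimum. In WT cells they were 0.357% and 0.784% at 15 to 20 reads, 0.540% and 1.12% at 20 to 30, and 0.705% and 1.42% at 30 to 50. Of the lower calls 3629 were shared by both genotypes, or 42.9% of the KO and 45.9% of the WT calls, against 47.4% and 48.4% at the other cytosines. Of the higher calls 8 were shared, or 12.3% of the KO and 7.92% of the WT calls, against 17.6% and 8.27% at the others. In 9 isolated cytosines the genotypes were called in opposite directions. Such calls were not counted at the other cytosines, so this number has no background.

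On both strands, 60 of the 475 CpGs were called lower in KO naive cells and 50 in WT naive cells, and none was called higher by Fisher's exact test. A further 131 CpGs in KO and 133 in WT cells were called on 1 strand. No such counts are given here for other CpGs, so these have no background. The 475 CpGs were also less methylated than most isolated CpGs. Their minus-strand mean was 66.2% in KO primed cells, against 84.9% where the plus strand was listed in no library. The CpG on chromosome 12, 92175176 to 92175177, ranked first in KO cells. It had 2 of 27 and 4 of 42 methylated reads on its plus and minus strands in the KO naive library, against 14 of 15 and 22 of 23 in the KO primed library. The levels were thus 7.41% and 9.52% in KO naive cells, against 93.3% and 95.7% in KO primed cells (adjusted p = 1.5e-06 and 3.9e-10, Fisher's exact test). In WT cells the strands stood at 50% and 18.8% in the naive and at 95.8% and 94.1% in the primed library, so the naive strands differed by more than in KO cells. Its neighbour 30 bp away was at 48% and 45% in the KO naive library, against 100% on both strands in the KO primed library.

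In WT cells the first-ranked drop on both strands was at chromosome 10, 50099645 to 50099646. The WT naive library had 3 of 20 and 2 of 25 methylated reads there, against 10 of 10 and 16 of 17 in the WT primed library. These are 15% and 8% against 100% and 94.1% (adjusted p = 0.00018 and 9.6e-07, Fisher's exact test). In KO cells the levels were 21.4% and 47.6% in the naive, against 91.7% and 95.2% in the primed library. At chromosome 18, 60880561 to 60880562, both strands were called lower in both genotypes, and the site was among the 5 largest drops of each. Its levels were 19.4% and 27.5% in the KO naive, against 80% and 94.4% in the KO primed library, and 20% and 23.5% in the WT naive, against 88% and 92.1% in the WT primed library. The neighbour 42 bp away fell less, and stood at 64.3% and 79.3% in the KO naive, against 92.3% and 90% in the KO primed library.

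Higher levels in naive cells were rare and were seen at single cytosines. At chromosome 9, 98276641, on the minus strand, 22 of 29 reads were methylated in the KO naive, against 4 of 23 in the KO primed library, and 20 of 26 in the WT naive, against 7 of 25 in the WT primed library. The level was thus 75.9% against 17.4% in KO cells and 76.9% against 28% in WT cells (adjusted p = 0.00072 and 0.0050, Fisher's exact test). Its neighbour 37 bp away, which played no part in this choice, was at 56% in the KO naive, against 13.3% in the KO primed library, and at 66.7% in the WT naive, against 11.1% in the WT primed library. The cytosine and its neighbour were both higher in the naive state of both genotypes, and at 37 bp both can lie on the same reads. At chromosome 4, 102203638, with no listed neighbour, the levels were 68% in KO naive, against 23.3% in KO primed cells, and 60% in WT naive, against 4.55% in WT primed cells (adjusted p = 0.0073 and 0.0014, Fisher's exact test).

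The error of a single cytosine was far larger than that of the means. Over the 475 CpGs the strands differed by a mean of 15.7 points in the KO naive, 20.4 in the WT naive, 17.2 in the KO primed and 18.6 in the WT primed library. At mean levels of 20 to 80% the squared difference between strands was 3.75, 4.02, 5.14 and 5.31 times the binomial expectation in the same order. Under 20 reads on average the ratio was 2.33 to 4.15. True differences between strands would also enter these ratios. With reads divided by the ratios of all 32834 autosomal CpGs with both strands, 49 isolated cytosines were called lower in KO and 22 in WT naive cells. These were 0.167% of isolated, against 0.441% of all cytosines in KO, and 0.0749% against 0.327% in WT cells, both below the background. No isolated cytosine was called higher, and each called site named here lost its call. At an unadjusted p under 0.05 Fisher's exact test then gave 1267 lower and 3 higher in KO and 1045 lower and 5 higher in WT cells. These were out of 29367 isolated cytosines, and no unadjusted count over all cytosines stands beside them.

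Up to 100 bp apart, pairs of isolated CpGs on the same strand differed less the closer they lay. At 1 to 25 bp the mean absolute difference was 13.8 points in the KO naive and 17.7 in the WT naive library, against 9.55 in the KO primed and 10.1 in the WT primed library (1331 pairs). At 51 to 100 bp it was 17.7 and 22.03 points in the KO and WT naive libraries, against 15.1 and 16.3 points in the KO and WT primed libraries (1136 pairs). At 151 to 200 bp the values were 15.96 and 18.4 points in the KO and WT naive libraries, against 21.3 and 20.9 points in the KO and WT primed libraries, over 57 pairs. Close neighbours can lie on the same reads, and the strands that were compared came from CpGs of lower level, so these values are set side by side without a test.

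**Figure D4:**
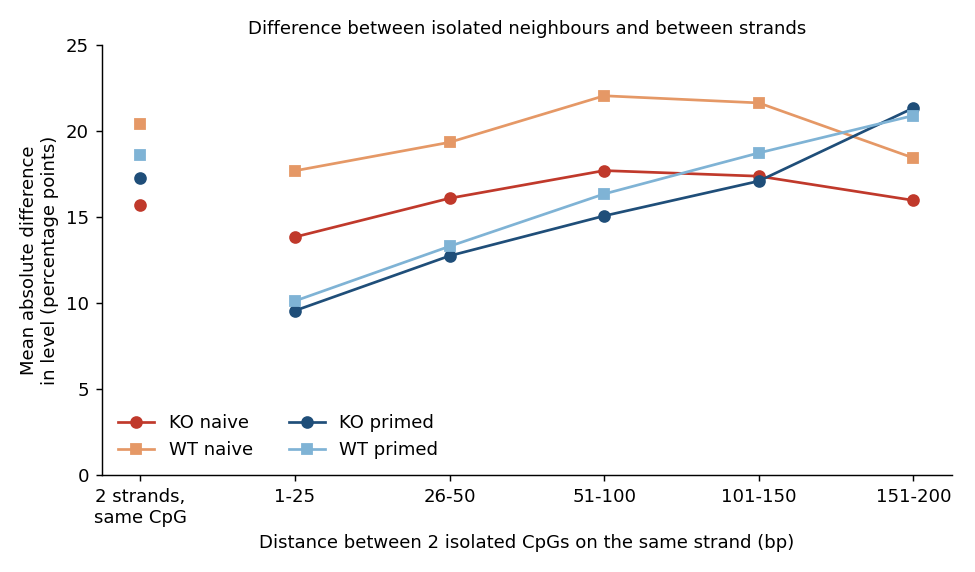
Mean absolute difference in level between isolated CpGs on the same strand by distance, and between the strands of 1 CpG (left), in each library. Over 1 to 100 bp the naive values (red and orange) lie above the primed values (blue), and all 4 lines go up with distance, from 9.55 to 17.7 points at 1 to 25 bp to 15.1 to 22.03 points at 51 to 100 bp.

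The neighbour also gives a second reading of a call, but not an independent one. Most neighbours with enough reads were close by and can lie on the same reads. Many were isolated cytosines themselves, so that such pairs entered from both sides. Of 2488 isolated cytosines called lower in KO naive cells that had a neighbour with 10 reads in all libraries, the neighbours were lower at 95.8% and averaged -34.3 points. Neighbours of the 6019 cytosines that were not called averaged -20.3 points. In WT cells the neighbours averaged -36.04 points at the 2318 cytosines called lower and -20.9 points at those not called. Neighbours of the 22 cytosines called higher in KO naive cells averaged 10.1 points and were higher at 11 of 22. Neighbours of the 32 called higher in WT naive cells averaged 8.12 points and were higher at 17 of 32. Neighbours of higher calls were thus lower in naive cells about as often as higher. Neighbours of cytosines not called were higher less often, at 12.05% in KO and 16.01% in WT cells.

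**Figure D5:**
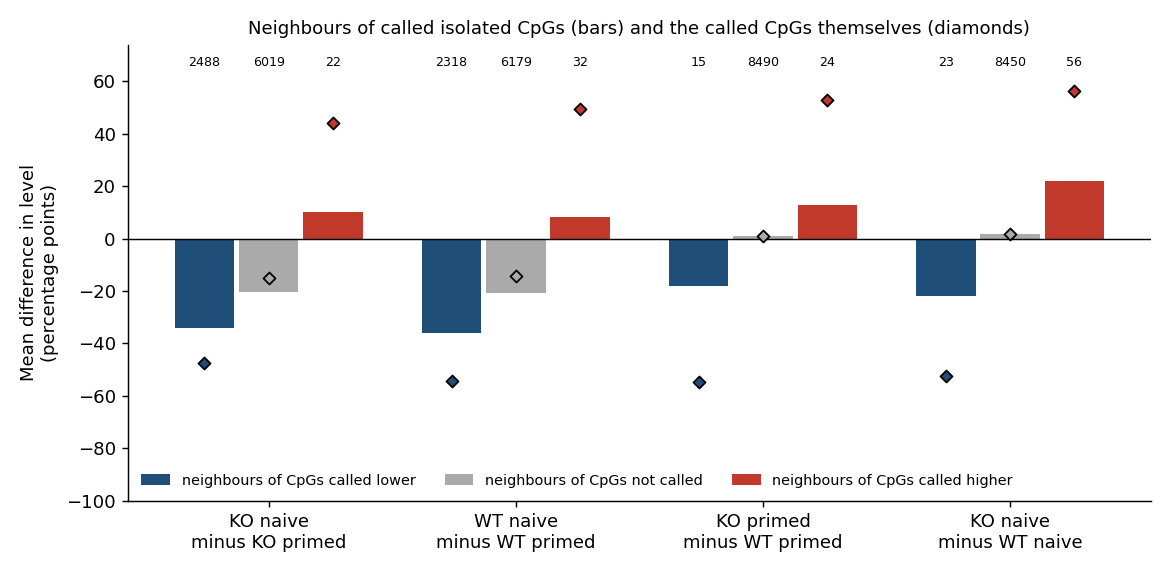
Mean difference in level at the neighbours of isolated cytosines called lower, not called, or called higher (bars) and at these cytosines themselves (diamonds), for each comparison, with the number of cytosines on top. The cytosines themselves were selected on the plotted difference and their neighbours were not, but close neighbours can lie on the same reads. In KO naive minus WT naive the neighbours averaged -21.9 points beside lower and 22.004 points beside higher calls.

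The knockout was compared with wild type within each state. In the primed state the mean level of isolated CpGs was 82.9% in KO and 81.8% in WT cells, a difference of 1.11 points (counting interval 0.984 to 1.24) with an SD across cytosines of 15.99 points. KO was higher at 46.6%, lower at 41.2% and equal at 12.2% of them. The other autosomal cytosines differed by 1.03 points, with KO higher at 45.9% and lower at 42.6%. Fisher's exact test with Benjamini-Hochberg adjustment called 73 isolated cytosines higher (0.249%, against a background of 0.603%) and 48 lower (0.163%, against 0.323%). With a minimum of 20 reads in all libraries the lower calls were 1.03% of isolated and 0.957% of all cytosines. The smaller share of lower calls was thus not seen with that minimum. The higher calls were then 0.891% of isolated and 1.56% of all cytosines. None of the 475 CpGs with both strands was called on both in either direction, and 8 were called on 1 strand. Neighbours of called cytosines averaged 12.8 points beside 24 higher and -18.1 points beside 15 lower calls, against 1.11 points beside those not called.

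At chromosome 7, 34931893, 24 of 27 reads were methylated in KO primed and 6 of 22 in WT primed cells, or 88.9% against 27.3% (adjusted p = 0.0067, Fisher's exact test). The neighbour 23 bp away pointed the same way, at 100% in KO primed and 57.7% in WT primed cells. In naive cells the cytosine stood at 70% in KO and 51.7% in WT. At chromosome 3, 13780561, the level was 51.7% in KO primed and 4% in WT primed cells (adjusted p = 0.028, Fisher's exact test), but the neighbour 72 bp away was at 4.17% in KO primed and 21.1% in WT primed cells. The largest lower difference at a single cytosine with 20 reads in all libraries lay at chromosome 17, 80778574, with 8 of 35 methylated reads in KO primed and 45 of 50 in WT primed cells, or 22.9% against 90% (adjusted p = 9.5e-07, Fisher's exact test). There the naive libraries were at 56.1% in KO and 65.6% in WT, and no neighbour was listed. At chromosome 19, 40118603, the level was 3.70% in KO primed and 64% in WT primed cells (adjusted p = 0.0018, Fisher's exact test), and 33.3% in KO naive and 14.3% in WT naive cells.

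In the naive state the mean level was 58.4% in KO cells in 2iLAF and 56.4% in WT cells in 5iLAF, a difference of 1.97 points (counting interval 1.81 to 2.14) with an SD of 19.9 points. KO was higher at 52.3% and lower at 46.5% of isolated cytosines. The other autosomal cytosines differed by 1.64 points, with KO higher at 52.1% and lower at 46.8%. The test called 200 higher (0.681%, against a background of 0.911%) and 73 lower (0.249%, against 0.527%). No CpG was called on both strands, and 10 were called on 1. The neighbours averaged 22.004 points and were higher at 44 of 56 cytosines called higher, and averaged -21.9 points and were lower at 21 of 23 called lower. The WT naive library had 16 reads per isolated cytosine at the median and the KO naive library 26. With 10 reads drawn per cytosine, or with reads divided by the ratio between strands, 0 isolated cytosines were called in either comparison of KO with WT by Fisher's exact test with adjustment. At an unadjusted p under 0.05, drawn reads gave 315 higher and 205 lower in the primed state and 580 higher and 374 lower in the naive state. These were out of 29367 isolated cytosines. Unadjusted counts were not made over all cytosines, so they have no background.

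At several sites the naive levels were far apart and the primed levels closer to each other. At chromosome 10, 81708992, 24 of 33 reads were methylated in KO naive and 5 of 23 in WT naive cells, or 72.7% against 21.7% (adjusted p = 0.031, Fisher's exact test), while the primed libraries were at 92.7% in KO and 92.9% in WT. The neighbour 200 bp away was at 64.3% in KO naive and 33.3% in WT naive cells, the WT value from 9 reads. At chromosome 17, 16300199, the level was 79.4% in KO naive and 27.3% in WT naive cells (adjusted p = 0.025, Fisher's exact test), and 100% in KO primed and 86.7% in WT primed cells. The neighbour 71 bp away, however, was at 52% in KO naive and 62.5% in WT naive cells. KO naive was instead the lower library at chromosome 6, 90984707, at 20% in KO naive and 85.7% in WT naive cells (adjusted p = 0.00014, Fisher's exact test). The primed levels there were 71.4% in KO and 72.2% in WT. The neighbour 60 bp away was at 53.1% in KO naive and 91.7% in WT naive cells. Levels of 80% or above in both primed libraries and in KO naive cells, with 20% or below in WT naive cells, were found at 30 isolated cytosines (0.102%, against 0.0801% of the others). The opposite pattern was found at 2 (0.00681%, against 0.0123% of the others), and the WT naive library also had the fewest reads in sum.

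Among the isolated CpGs themselves, level went with depth and with the strands that were covered. The 20030 cytosines whose lowest coverage was 10 to 14 reads averaged 60.4% in the KO naive and 58.5% in the WT naive, against 85.4% in the KO primed and 84.3% in the WT primed library. The 852 with at least 30 reads in all libraries averaged 32.1% and 30.8% in the KO and WT naive, against 48.3% and 46.5% in the KO and WT primed libraries. Their naive-minus-primed differences were -16.2 points in KO and -15.7 points in WT cells, against -25.001 and -25.8 points at 10 to 14 reads. The 1097 plus-strand cytosines averaged 43.5% and 41.9% in the KO and WT naive and 62.5% and 61.96% in the KO and WT primed libraries. Minus-strand cytosines whose plus strand was listed in no library (25028) averaged 59.7% and 57.7% in the KO and WT naive and 84.9% and 83.8% in the KO and WT primed libraries. Whether depth or the covered strand plays a part in these levels was not tested.

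Differences by the number of listed CpGs were smaller. Isolated cytosines with no CpG listed nearby averaged 83.9% in the KO primed and 82.8% in the WT primed library, and those with 1 neighbour 82.5% and 81.4%. Cytosines with 3 positions in the window, just outside the rule, averaged 57.97% and 56.02% in the KO and WT naive and 81.96% and 80.9% in the KO and WT primed libraries. Those with 2, just inside it, averaged 58.1% and 56.2% in the KO and WT naive libraries. At a lowest coverage of 9 reads the means were 60.8% and 58.9% in the KO and WT naive libraries, and at 10 reads 60.8% and 59.04%. In wider surroundings with 11 or more CpGs listed within 1000 bp, 563 isolated cytosines averaged 55.3% in the KO naive and 53.7% in the WT naive, against 78.7% in the KO primed and 77.01% in the WT primed library.

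Isolated CpGs made up from 2.03% of the covered cytosines on chromosome 19 to 11.4% on chromosome 3. Their level was lower in the naive library on each of the 22 autosomes in both genotypes. In KO cells chromosome 5 had the lowest difference, at -25.9 points, and in WT cells chromosome 14, at -27.3 points. Chromosome 19 had the smallest drop in both, at -21.1 points in KO and -21.3 points in WT cells. Chromosome 19 also had the lowest mean of isolated CpGs in each library, at 52.6% in the KO naive and 50.4% in the WT naive, against 73.7% in the KO primed and 71.7% in the WT primed library (409 cytosines). KO was higher than WT on all 22 autosomes in both states, by 0.0905 to 2.74 points in primed and 0.673 to 3.45 points in naive cells. The other autosomal cytosines were also higher in KO on average, by 1.03 points in primed and 1.64 points in naive cells.

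In windows of 5 Mb with at least 20 isolated and 20 other cytosines, the isolated CpGs were lower in the naive state of both genotypes in all 505 windows. The naive-minus-primed difference ranged from -39.3 to -7.84 points in KO and from -42.5 to -9.54 points in WT cells, with a Pearson r of 0.617 between genotypes across windows. Between isolated and other cytosines of the same window the r was 0.291 in KO and 0.253 in WT cells. Few cytosines per window limit these values. The lowest difference averaged over both genotypes was on chromosome 4, 20000001 to 25000000, at 57.9% in KO naive, against 93.1% in KO primed cells, and 48.4% in WT naive, against 90.9% in WT primed cells (31 cytosines). The smallest drop lay at the end of chromosome 21, 45000001 to 50000000, at 74.4% in KO naive, against 82.2% in KO primed cells, and 70.1% in WT naive, against 82.998% in WT primed cells (21 cytosines). Windows were ranked on the values given, so these are extremes and not tests.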

How the data were processed

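Genomic DNA of 4 H9 samples was sequenced after bisulfite treatment and methylation capture, with a conversion of 99% in each library, per the labels' protocols. Positions are those of hg19 (GRCh37), as the submitters' processing notes name it. The aligner, the caller and any removal of duplicates were not given in the sources used here. Each deposited table holds, per the file headers, raw read counts for every CpG cytosine and strand of 1 library (total, context and methylated coverage). The deposited methylation level is a fraction, the methylated over the context count, and was recomputed here in percent. Every listed cytosine had at least 1 methylated read. Reads were not identified as molecules, so intervals cover counting error only.

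Summed context coverage was 40697882 reads in the KO naive, 23916547 in the WT naive, 28450230 in the KO primed and 24570785 in the WT primed library, without chromosome Y. Strands were kept apart and cytosines weighted equally. Fisher's exact tests were checked against scipy and on simulated reads. Named sites were, for each comparison and direction, the 5 with the largest difference called on both strands, at most 100 reads, otherwise single cytosines with at least 20 reads. The text gives a selection of these. The CpGs at 80% or above on both strands were ranked by their lowest level, and the low CpGs by their highest level. The limit of 100 reads was not applied to these CpGs. The members, tests and alternatives were chosen with earlier results of these data known. The bins of depth and distance, the neighbours of calls, the wider surroundings and the 5 Mb windows were added after the data were seen. An hg19 genome or annotation was not used here, so no sequence or gene is given. Python 3.11.15, numpy 2.4.6, pandas 2.3.3, scipy 1.17.1 and numba 0.67.0 were used.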

Additional observations from a re-analysis of the deposited data

Results flagged for a closer look

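At chromosome 19, 40118603 (plus strand), the naive-minus-primed difference was called in opposite directions in the genotypes. It was 29.6 points in KO cells, with 10 of 30 methylated reads in the naive and 1 of 27 in the primed library. In WT cells it was -49.7 points, with 5 of 35 in the naive and 16 of 25 in the primed library. The difference between the genotypes was not tested. Such opposite calls were found at 9 isolated cytosines and were not counted at the others.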

How the results depend on the processing

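No mean difference changed sign under any alternative. Mean differences of isolated CpGs are given in the order KO naive minus KO primed, WT naive minus WT primed, KO minus WT primed and KO minus WT naive, where they moved by more than their counting interval. With 5 reads in place of 10 as minimum they were -24.7, -25.01 and, in naive cells, 1.36 points, and with 20 reads -20.4 and -21.3 points. Weighted by reads they were -23.3, -24.2, 0.820 and 1.70 points. On the plus strand alone they were -19.01, -20.1, 0.553 and 1.61 points, and on the minus strand alone -24.7 and -25.6 points for naive against primed. With no listed neighbour they were -24.9, -26.05 and, in naive cells, 2.19 points. Cytosines unlisted in 1 library, added there at 0%, gave -26.05 points in WT cells, 1.32 points between primed and 2.91 points between naive libraries. Summed strands, a coverage limit of 100 reads and a window of 500 bp moved no mean beyond its interval. The naive-minus-primed difference of isolated minus other CpGs lay between -7.97 and -0.147 points.

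Counts of called isolated cytosines are given lower first, then higher, by Fisher's exact test with adjustment. With 5 reads, 13108 were lower in KO naive cells and 31 in KO against WT primed cells, out of 73242. The 31 were 0.0423% of isolated, against 0.103% of all cytosines. With 20 reads the counts were 1015 and 13 in KO and 1051 and 21 in WT naive against primed, 30 and 26 between primed and 22 and 47 between naive libraries, out of 2919. Lower calls between primed libraries then outnumbered higher calls, the reverse of the 48 and 73 with 10 reads. These lower calls were 1.03% of isolated cytosines, against 0.957% of all. Against the share called over all cytosines, the higher calls in KO naive cells were then 0.445% against 0.439%. In WT naive cells they were 0.719% against 1.20%. The lower calls were then 34.8% against 30.3% in KO and 36.01% against 32.7% in WT naive cells. Between primed libraries the higher calls were 0.891% against 1.56%. Between naive libraries the lower calls were 0.754% against 1.10% and the higher calls 1.61% against 1.90%. With 5 reads the lower calls were 17.9% against 18.2% in KO and 15.3% against 16.2% in WT naive cells. With 10 reads drawn they were 1.92% against 2.33% in KO and 3.37% against 3.73% in WT naive cells. With 50 points or more the counts were 3275 and 14 in KO and 4898 and 53 in WT naive against primed. They were 30 and 43 between primed and 42 lower between naive libraries. The lower calls were 11.2% of isolated, against 10.4% of all cytosines in KO, and 16.7% against 15.3% in WT naive cells. The higher calls were 0.0477% against 0.0919% in KO and 0.180% against 0.343% in WT naive cells. Between primed libraries the shares were 0.102% against 0.177% and 0.146% against 0.350%. Between naive libraries the lower calls were 0.143% against 0.272%. With 10 reads drawn the counts were 565 and 3 in KO and 991 and 7 in WT naive against primed. Both comparisons of KO with WT then gave 0 and 0. The higher calls were 0.0102% of isolated, against 0.0122% of all cytosines in KO, and 0.0238% against 0.0530% in WT naive cells. Reads divided by the variance ratio between strands gave 49 and 0 in KO and 22 and 0 in WT naive against primed. Those lower calls were 0.167% of isolated, against 0.441% of all cytosines in KO, and 0.0749% against 0.327% in WT naive cells. Both comparisons of KO with WT gave 0 and 0. There an unadjusted p under 0.05 in Fisher's exact test gave 7 and 13 (primed) and 28 and 117 (naive), out of 29367. These unadjusted counts have no background over all cytosines. With no listed neighbour the counts were 2086 and 17, 2026 and 21, 11 and 11, and 11 and 48, out of 7513. In KO naive cells these were 27.8% against 27.4% and 0.226% against 0.392% of all cytosines. In WT naive cells they were 26.97% against 26.7% and 0.280% against 0.828%. Between primed libraries they were 0.146% against 0.323% and 0.146% against 0.603%. Between naive libraries they were 0.146% against 0.527% and 0.639% against 0.911%. The number of cytosines, the number of reads or the threshold differs in each of these settings by construction. Naive and primed libraries were paired by genotype only, and no replicate block could be fitted, since the labels give no replicate numbers and each group holds 1 library. Depth limits single sites: at 16 reads, the median of WT naive cells, only large differences can pass the adjustment.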
